A study of Mus musculus with 20 samples.

Results

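Inguinal subcutaneous fat pads taken at estrus were compared with pads taken at metestrus, the stage that follows it in the mouse estrous cycle. The comparison used 10 of the 20 libraries of the study, 5 labelled estrus and 5 labelled metestrus. The 5 proestrus and 5 diestrus libraries entered the filter on low values, the estimate of the spread, the alternatives and the description of the whole cycle. Every mouse was an untreated C57BL/6 female of 8 weeks with free access to food, and each library came from a different mouse. The authors assigned the stage by daily vaginal smears and assayed estradiol and progesterone in serum, so ovarian hormones and stage change together and cannot be told apart in this design. Smears were taken in the morning and the pads were removed later on the day of the last smear, at an hour that the sources used here do not give for each mouse, nor do they give the time since the last meal.

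The estrous cycle is driven by ovarian steroids, which act through nuclear receptors that bind DNA and change transcription. The glucocorticoid receptor, the progesterone receptor and the androgen receptor recognise nearly the same DNA element, and several genes, of which Fkbp5 is the textbook case, respond to more than one of these hormones. The inguinal pad of a female mouse holds white adipocytes, the epithelial ducts of a mammary gland, vessels, immune cells and a lymph node.

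Levels were given as FPKM, the fragments of a gene scaled by its transcript length and by the size of the library. A gene was tested where it reached 1 FPKM in at least 5 of the 20 libraries, which left 13987 genes, and changes are metestrus minus estrus of log2(FPKM + 1), so that the added 1 makes changes of low genes look smaller than they are. Of these genes 31 (0.222%) passed an adjusted p of 0.05, 24 of them higher at metestrus (0.172%) and 7 lower (0.05%). An unadjusted p under 0.05 was reached by 1137 genes (8.13%), 406 of them higher (2.9%) and 731 lower (5.23%). When the libraries were rescaled by median-ratio size factors, 588 were higher and 507 lower, so the excess of falls depended on the scaling. The 5 metestrus values all lay on one side of the 5 estrus values for 234 genes (1.67%), above them for 92 (0.658%) and below them for 142 (1.02%). On the deposited scale the median change over all tested genes was -0.05, with 39.8% of them above 0.

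The pads were adipose by their markers but differed in other tissue. Of 15 lists of cell type markers, none held a gene that passed the adjusted threshold, and none held a gene with an unadjusted p under 0.05 by limma except the brown adipocyte list, which held 2. The summed level of 9 B and plasma cell markers ran from 3.01 to 372 FPKM at estrus and from 2.61 to 286 FPKM at metestrus, and estrus-1, estrus-2, estrus-4, metestrus-3 and metestrus-4 were the low libraries. The median change of these markers was 0.22 with all libraries and -0.27 without estrus-1. Metestrus-3 carried 8276 FPKM of 12 skeletal muscle markers, against 7.62 to 395 FPKM in the other 9 libraries, and the least luminal mammary epithelium. Fewer cells of a type and less RNA per cell cannot be told apart in whole pads.

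**Figure D1:**
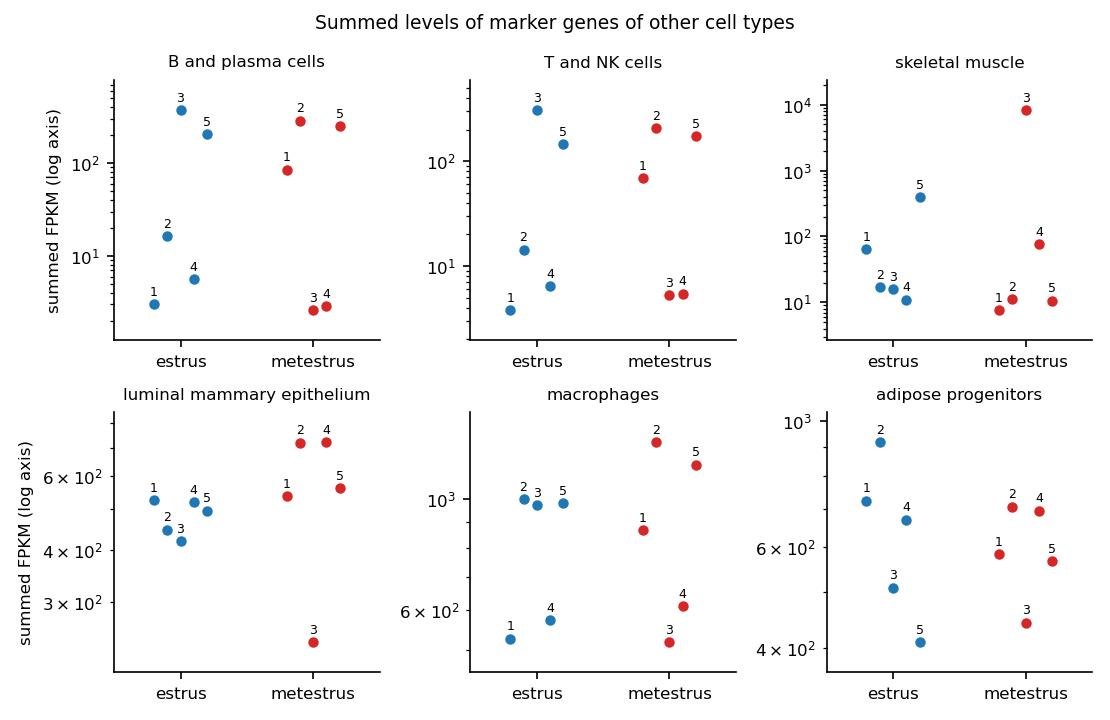
Summed FPKM of the marker genes of 6 cell types or tissues in each estrus and metestrus library, on log axes, with the number of the mouse above each point. Lymphocyte markers split the libraries of both stages alike, with 3 low estrus and 2 low metestrus libraries, and metestrus-3 stands apart in skeletal muscle and luminal epithelium.

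The smallest p-values belonged to a pair of neighbours on chromosome 11. Slc35e4, a member of the nucleotide sugar transporter family, measured 4.44, 3.73, 2.26, 2.29 and 2.51 FPKM in estrus-1 to estrus-5 and 11.8, 7.37, 11.8, 9.76 and 9.51 FPKM in metestrus-1 to metestrus-5. Dusp18, a dual-specificity phosphatase, measured 3.51, 3.52, 3.29, 4.16 and 4.02 FPKM at estrus and 8.90, 5.43, 8.29, 10.6 and 8.51 FPKM at metestrus. Both genes were higher in each metestrus pad than in any estrus pad, and metestrus-2 was the lowest metestrus pad for both. The rise was 1.47 ± 0.16 (SE, adjusted p = 0.000263) for Slc35e4 and 0.97 ± 0.12 (adjusted p = 0.00123) for Dusp18. Dusp18 (chr11:3895240-3901296, plus strand) and Slc35e4 (chr11:3907021-3914664, minus strand) point towards each other with 5725 bases between their ends in the GENCODE annotation of GRCm38. The next gene beyond Slc35e4, Tcn2, which encodes the vitamin B12 carrier transcobalamin, moved from 49.3 ± 6.52 to 63.0 ± 8.46 FPKM (SD, n = 5 each), a change of 0.34 that did not pass (adjusted p = 0.280). The next closest pair of called genes was Cdkn1a and Fkbp5 on chromosome 17, 573449 bases apart.

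Among 15 listed genes known to respond to glucocorticoids, 5 passed the threshold, all higher at metestrus, against 0.172% of all tested genes. The list had a median change of 1.07 against -0.05 over all genes. Of its members 13 had an unadjusted p under 0.05 and 7 did not overlap, all higher, against 2.9% and 0.658% of all genes. This list and the other gene lists were written with earlier results of these data known, so their counts and medians are no separate evidence. Rasd1, a dexamethasone-induced gene described below, was called lower and was not on the glucocorticoid list. Fkbp5, an Hsp90 co-chaperone that restrains steroid receptors, measured 5.31, 4.85, 8.94, 3.38 and 4.35 FPKM at estrus and 28.0, 17.6, 17.6, 40.4 and 33.8 FPKM at metestrus. Tsc22d3, which encodes the anti-inflammatory protein GILZ, measured 35.9, 16.8, 37.1, 10.1 and 17.8 FPKM at estrus and 66.6, 65.0, 65.5, 83.1 and 74.7 FPKM at metestrus. The metestrus pads were closely grouped for Tsc22d3, whereas estrus-1 and estrus-3 stood above the other estrus pads. Cebpd, a transcription factor of early adipogenesis, measured 7.98, 8.03, 3.75, 3.22 and 4.51 FPKM at estrus and 10.8, 12.9, 11, 17.4 and 11.5 FPKM at metestrus, a rise of 1.13 ± 0.20 (adjusted p = 0.0166). The cell cycle inhibitor Cdkn1a rose by 1.5 and the pyruvate dehydrogenase kinase Pdk4 by 2.14 on the same scale.

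Other members of the list gave large changes that did not pass. Ddit4, a brake on mTORC1, measured 32.5, 49.2, 51.3, 14.9 and 31.1 FPKM at estrus and 82.5, 109, 91.3, 121 and 128 FPKM at metestrus. The stages did not overlap, yet the change of 1.64 had an adjusted p of 0.0692. Zbtb16, which also responds to progesterone, moved from 8.07 ± 4.71 to 22.1 ± 6.87 FPKM (adjusted p = 0.292), and the metallothionein gene Mt1 from 33.6 ± 18.0 to 64.9 ± 14.3 FPKM (adjusted p = 0.108). The median of the list stayed between 0.89 and 1.29 under every alternative run.

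Fam107a, an actin-binding protein that is induced by stress and glucocorticoids in mouse brain, was not on the list. It measured 2.20, 1.29, 1.5, 0.782 and 0.481 FPKM at estrus and 4.90, 2.98, 5.50, 7.45 and 6.61 FPKM at metestrus, with no overlap and a rise of 1.53 ± 0.22 (adjusted p = 0.00491). Rasd1, a Ras-like GTPase first cloned as a dexamethasone-induced gene in mouse pituitary cells, went the other way. It measured 63.3, 55.0, 40.6, 52.7 and 70.0 FPKM at estrus and 19.8, 12.5, 18.5, 23.1 and 17.4 FPKM at metestrus. Every metestrus pad was below every estrus pad for Rasd1.

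The hormone receptors themselves did not pass. The glucocorticoid receptor gene Nr3c1 measured 36.2, 35.8, 33.3, 32.7 and 31.2 FPKM at estrus and 18.2, 26.2, 29.4, 18.3 and 20.6 FPKM at metestrus. All metestrus pads were lower, by -0.59 with an adjusted p of 0.0884. The progesterone receptor gene Pgr measured 2.99 to 7.32 FPKM at estrus and 4.35 to 8.04 FPKM at metestrus, with overlap, and the estrogen receptor gene Esr1 measured 7.03 to 8.70 and 5.94 to 7.63 FPKM. Of the 16 receptor genes tested, 0 passed the adjusted threshold by limma and 5 had an unadjusted p under 0.05, 1 higher and 4 lower. Over all tested genes 8.13% had such a p. Of 7 tested genes that respond to progesterone, Fkbp5, which is also on the glucocorticoid list, was the one that passed. Of 11 genes that respond to estrogen, none passed, and 4 had an unadjusted p under 0.05, with Igf1 at 30.8 ± 7.02 FPKM at estrus and 19.6 ± 3.18 FPKM at metestrus.

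**Figure D2:**
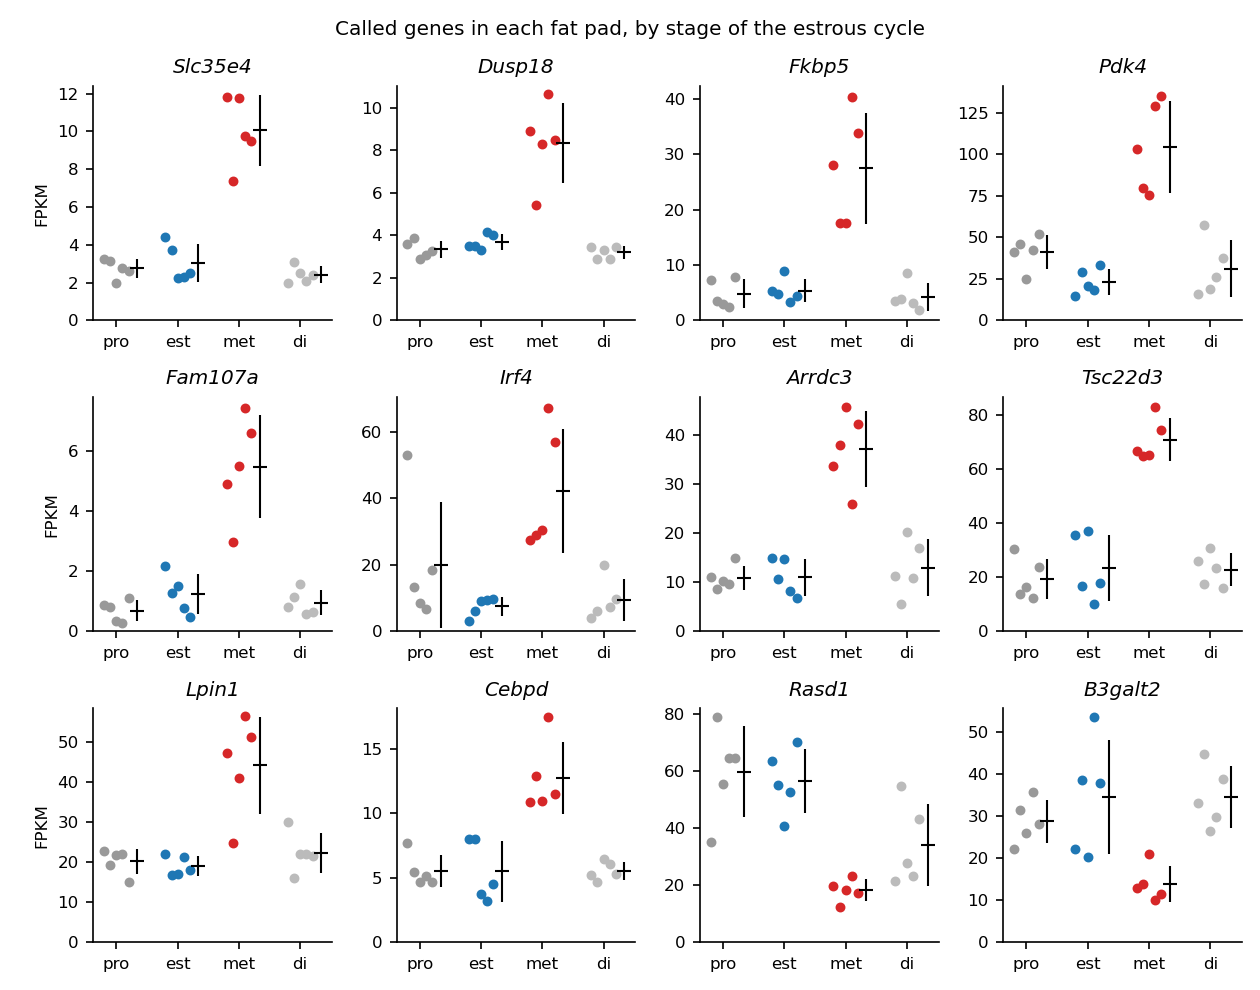
FPKM of 12 called genes in each of the 20 pads, by stage (pro, proestrus; est, estrus; met, metestrus; di, diestrus), with the mean and SD of 5 mice as bars. For Slc35e4, Dusp18, Fkbp5, Pdk4 and Tsc22d3 the 5 metestrus pads lie above all other 15, whereas the estrus pads overlap those of proestrus and diestrus.

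Several called genes act in fuel choice and lipid handling. Pdk4, which closes the entry of pyruvate into the mitochondrial citric acid cycle, measured 14.8, 29.4, 20.7, 18.3 and 33.2 FPKM at estrus and 103, 79.4, 75.3, 129 and 135 FPKM at metestrus. It was the one called gene among 13 genes of the pyruvate dehydrogenase complex and its regulators, whose median change was -0.08. Of the 13 changes, 5 were above 0 and 8 below. The related kinase gene Pdk2 moved from 21.1 ± 3.70 to 35.8 ± 8.44 FPKM with overlap and did not pass (adjusted p = 0.109). Lpin1, a phosphatidate phosphatase of triglyceride synthesis that also acts as a coactivator, measured 22.1, 16.9, 17.1, 21.4 and 18.0 FPKM at estrus and 47.3, 24.9, 41.1, 56.5 and 51.4 FPKM at metestrus, a rise of 1.13 ± 0.19 (adjusted p = 0.0140). The estrus pads were closely grouped for Lpin1 and metestrus-2 was the lowest metestrus pad. The other 20 genes of fatty acid and triglyceride synthesis did not pass, and the median of that list was -0.0037. Gdpd1, a lysophospholipid-cleaving phosphodiesterase, rose from 3.30 ± 0.631 to 7.53 ± 1.75 FPKM, and the aldehyde dehydrogenase Aldh3b2 from 9.21 ± 1.82 to 22.4 ± 8.44 FPKM.

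Irf4, a transcription factor of lymphocytes that is also induced in adipocytes by fasting, had the largest fitted rise. It measured 3.25, 6.02, 9.19, 9.52 and 9.66 FPKM at estrus and 27.6, 29.0, 30.4, 67.2 and 57.0 FPKM at metestrus. The stages did not overlap, and the metestrus level was highest in metestrus-4, a library low in lymphocyte markers. The rise was 2.32 ± 0.46 with an adjusted p of 0.0435, and the call was lost in 14 of the 20 fits that left out 1 library, with adjusted p from 0.0123 to 0.162. One proestrus pad, proestrus-1, reached 53.0 FPKM.

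FoxO target and fasting genes had 1 called member of 20, Pdk4, and a median change of 0.41, with 17 members above 0. An unadjusted p under 0.05 in the upward direction was reached by 10, against 2.9% of all genes. Pdk4, Ddit4 and Angptl4 are among these 10 and are also on the glucocorticoid list, so the counts of both lists are not separate evidence. Txnip, an alpha-arrestin that limits glucose uptake, moved from 465 ± 114 to 802 ± 140 FPKM without overlap (adjusted p = 0.146). Its relative Arrdc3 passed, from 15, 10.6, 14.8, 8.13 and 6.76 FPKM at estrus to 33.7, 38, 45.7, 26.0 and 42.2 FPKM at metestrus. Arrdc3 was higher in each metestrus pad than in any estrus pad. Pck1, the enzyme of glyceroneogenesis, moved from 363 ± 94.3 to 966 ± 300 FPKM without overlap, and its change of 1.39 did not pass (adjusted p = 0.264). The fit took the spread from all 4 stages, whereas the SDs are of estrus or metestrus alone.

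None of the 22 fatty acid oxidation genes passed by limma. An unadjusted p under 0.05 was reached by 5 of them, all higher at metestrus, against 2.9% of all genes. All 22 changes were above 0 on the deposited scale, with a median of 0.22, where 39.8% of all genes were above 0. All 22 were also above 0 with median-ratio size factors, with a median of 0.29. After rescaling to equal totals 20 were above 0, and 18 after rescaling without mitochondrial genes. Ppara, the nuclear receptor that drives oxidation genes, came closest, from 1.63, 2.08, 2.18, 2.83 and 3.15 FPKM at estrus to 7.88, 3.04, 5.63, 7.0 and 7.45 FPKM at metestrus (adjusted p = 0.0558). Metestrus-2 alone fell within the estrus range. Of 22 tested genes of cholesterol synthesis and uptake, 0 passed by limma, and 19 were below 0, with a median of -0.23. An unadjusted p under 0.05 was reached by 3, all lower, against 5.23% of all genes. Msmo1, a sterol oxidase, measured 6.33 ± 0.797 FPKM at estrus and 3.99 ± 0.717 FPKM at metestrus without overlap (adjusted p = 0.207).

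**Figure D3:**
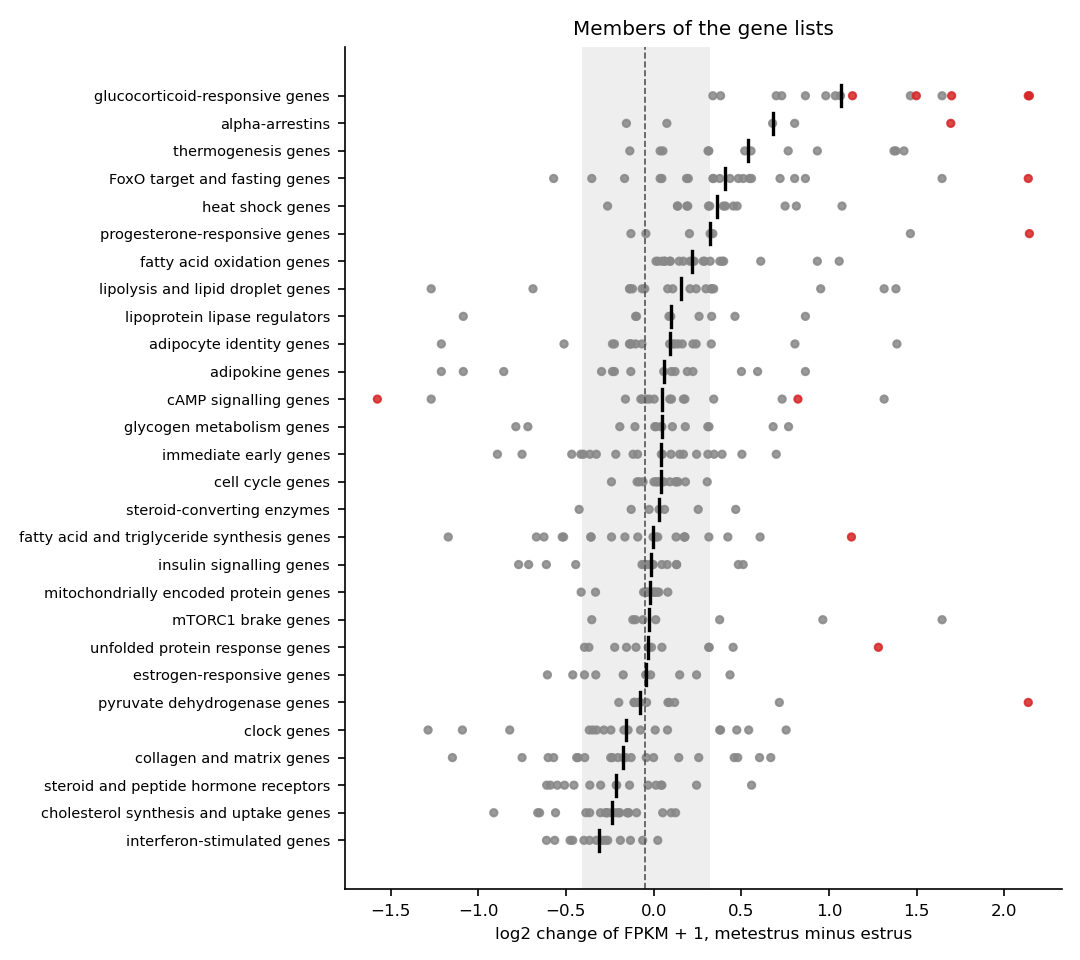
Change of each member of 28 gene lists from estrus to metestrus, in log2 of FPKM + 1, with called members in red and the median of each list as a black bar. The grey band spans the 5th to the 95th percentile of all tested genes (-0.40 to 0.31) and the dashed line their median, and the glucocorticoid list has the highest median (1.07) and the interferon list the lowest (-0.31).

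Genes of the cyclic AMP pathway, through which catecholamines start lipolysis, included 1 called riser and 1 called faller among 16. Pde4d, which breaks down cyclic AMP, measured 1.13, 0.609, 1.41, 1.56 and 0.908 FPKM at estrus and 2.81, 1.93, 2.53, 2.52 and 4.04 FPKM at metestrus, a rise of 0.82 ± 0.15 (adjusted p = 0.0189). The faller was Rasd1, given above. The beta-3 adrenergic receptor gene Adrb3, the main form of mouse adipocytes, measured 24.3, 91.3, 35.0, 105 and 74.1 FPKM at estrus and 18.6, 20.2, 55.4, 19.1 and 16.5 FPKM at metestrus (adjusted p = 0.260). The stages overlapped for Adrb3, with metestrus-3 above estrus-1 and estrus-3. Mc5r, a melanocortin receptor that signals through cyclic AMP, was not on the list and rose from 1.3 ± 0.583 to 3.18 ± 0.443 FPKM (adjusted p = 0.0166).

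Of the remaining called risers, Slc10a6 is a carrier of sulfated steroids. It measured 5.06, 2.29, 2.89, 2.21 and 2.39 FPKM at estrus and 5.17, 7.17, 6.62, 6.83 and 6.37 FPKM at metestrus, with estrus-1 close to the lowest metestrus pad. Its rise was 0.94 ± 0.18 (adjusted p = 0.0286). Chac1, which degrades glutathione and is a target of ATF4, rose from 1.89 ± 0.831 to 6.03 ± 2.26 FPKM and was the 1 called gene among 13 of the unfolded protein response. Ankrd9, whose protein binds a cullin ubiquitin ligase, rose from 0.819 ± 0.277 to 2.66 ± 0.778 FPKM (adjusted p = 0.00421). The mitochondrial nucleotide carrier Slc25a33, the elongation factor Ell2, the ADP-ribosyltransferase Tiparp and the ankyrin repeat gene Sowahc rose by 0.57 to 0.90, and leaving out 1 library ended the call of Sowahc in 18 of 20 fits and that of Slc25a33 in 12. The stress gene Gadd45g rose by 1.33 with overlap, since estrus-2 at 24.1 FPKM lay above metestrus-1 at 19.7 FPKM. Gm49041 rose by 0.51 from 0.880 ± 0.169 FPKM.

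The 7 called fallers shared no list except that Rasd1 was on the cyclic AMP list. B3galt2, a galactosyltransferase, measured 22.3, 38.7, 20.4, 53.5 and 38 FPKM at estrus and 12.9, 13.9, 21.1, 10.2 and 11.5 FPKM at metestrus, a change of -1.21 ± 0.23 (adjusted p = 0.0415). Only metestrus-3 overlapped the estrus pads, above estrus-3. The polarity gene Pard6g fell from 7.68 ± 1.24 to 4.03 ± 0.768 FPKM (adjusted p = 0.0159). The CXXC zinc finger gene Cxxc5, Tmem263 and AI429214 fell by 0.53 to 0.66 on the log2 scale, and their calls were lost in 14 of the 20 fits without 1 library for Cxxc5 and in 16 for each of the others. With median-ratio size factors the median change of all genes was 0.00 in place of -0.05, and 33 genes were higher and 3 lower, so that 91.7% of calls were rises in place of 77.4%.

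B3galt2 lies within Cdc73 on the opposite strand, and the 3′ parts of Cebpd and Tmem263 overlap Spidr and Mterf2, also on the opposite strand. Whether the library kept the strand is not given in the sources used here, so reads of these pairs may not be told apart. These partners measured less and none passed, with changes of -0.08 for Cdc73, 0.02 for Spidr and -0.28 for Mterf2. Pde4d holds the ribosomal pseudogene Rps3a3 on its own strand, which measured 16.6 FPKM over the 10 pads, more than Pde4d itself, with a change of 0.05 that did not pass.

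**Figure D4:**
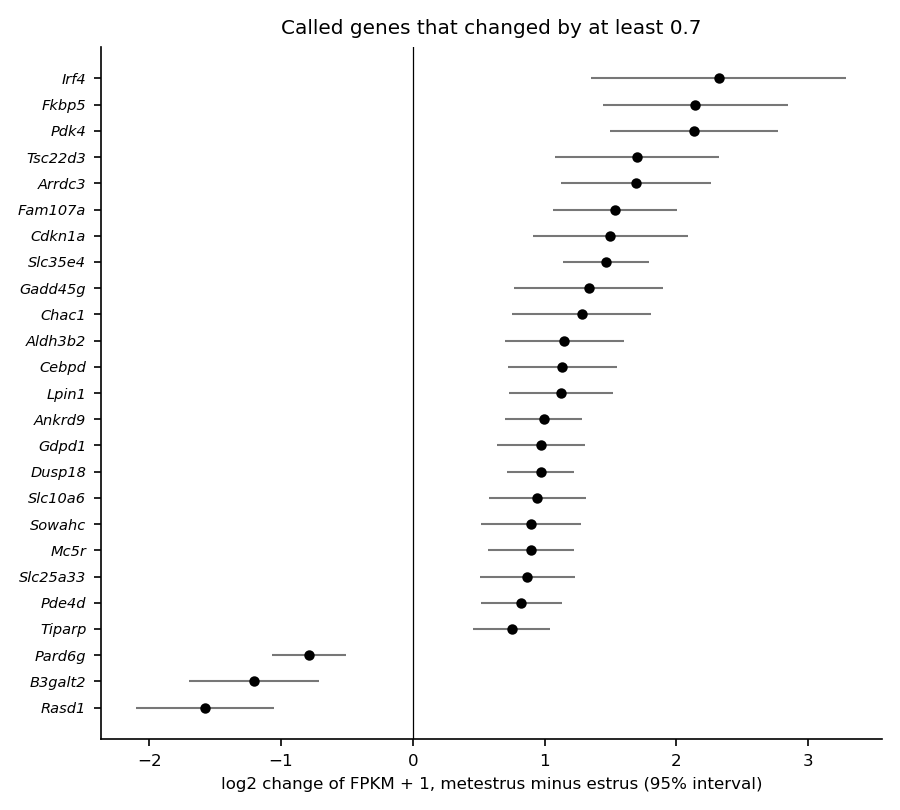
Change from estrus to metestrus of the 25 called genes that moved by at least 0.7, in log2 of FPKM + 1, with 95% intervals from limma that are not adjusted for the number of genes. The rises run from 0.75 (Tiparp) to 2.32 (Irf4) and the falls from -0.79 (Pard6g) to -1.58 (Rasd1).

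Over the whole cycle, all 24 risers had their highest mean at metestrus and all 7 fallers their lowest. For 18 risers and 1 faller the 5 metestrus pads lay beyond all 15 other pads, whereas estrus did so for none of the 31. Estrus held the lowest mean for 11 risers and the highest for 4 fallers. In the comparison of estrus with proestrus, none of the 31 genes was called by limma, nor in the comparison of diestrus with estrus. Metestrus against proestrus called 20 of the risers and 4 of the fallers, and diestrus against metestrus 20 and 3. Each of these comparisons shares either the estrus or the metestrus libraries with the one that chose the genes, so the counts describe the same pads and are no separate evidence.

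The metestrus pads carried the pattern unequally. The median deviation of the 24 risers from their mean over the 10 pads was 0.27 in metestrus-2 and 0.88 in metestrus-4, with the other metestrus pads between, and it ran from -0.39 in estrus-1 to -0.70 in estrus-4. For the fallers metestrus-2 was again the least displaced at -0.15 and metestrus-4 the most at -0.58. Outside these stages, proestrus-1 had the least negative median of the risers among proestrus and diestrus pads.

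**Figure D5:**
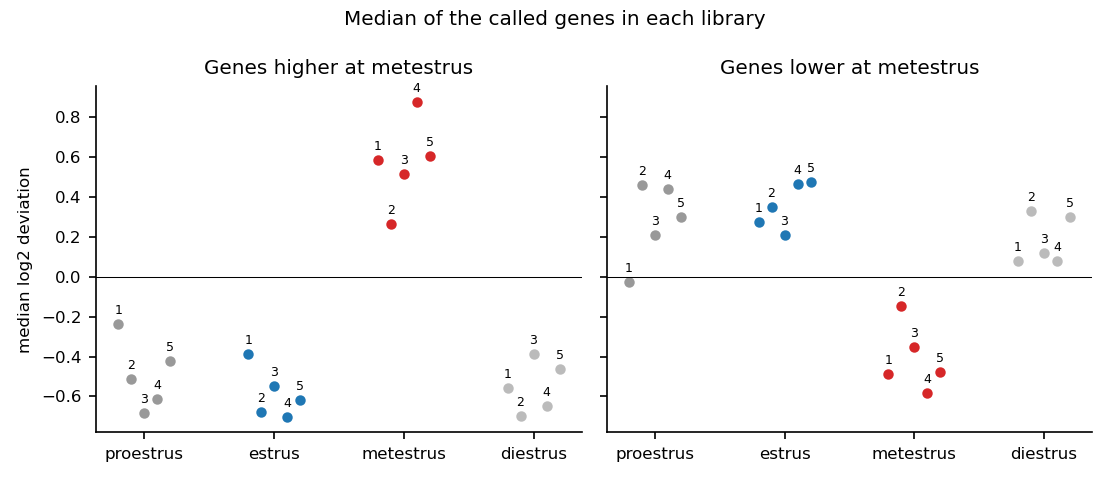
Median deviation of the 24 called risers (left) and the 7 called fallers (right) in each pad, in log2 of FPKM + 1 from the mean of the 10 estrus and metestrus pads, with the number of the mouse above each point. Metestrus-4 is the most and metestrus-2 the least displaced metestrus pad on both sides, and the choice of the genes sets the direction between estrus and metestrus.

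The number of calls rested on single libraries. It was 9 without metestrus-4 and 9 without metestrus-5, 13, 14 and 16 without estrus-5, estrus-4 and estrus-2, 16 without metestrus-1 and 20 without proestrus-5, while it was 56 without metestrus-2 and 47 without proestrus-1. Slc35e4, Dusp18, Fkbp5, Pdk4, Arrdc3, Fam107a, Ankrd9 and Rasd1 were the 8 genes called in all 20 fits that left out 1 library, and all 31 genes kept their direction in each of them. A fit of the 10 estrus and metestrus libraries alone called 6 of the 31, and Dusp18 (adjusted p = 0.0661), Fam107a (0.0995) and Ankrd9 (0.102) were among the 25 that it lost. Calls lost in 10 or more of the 20 fits numbered 10, among them Irf4, Gadd45g, Chac1, Sowahc, Slc25a33, Cxxc5, Tmem263, Gm49041 and AI429214.

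Of 18 clock genes tested, 0 passed by limma and 5 had an unadjusted p under 0.05, 2 of them higher and 3 lower at metestrus. The share over all genes was 8.13%. Bhlhe40, a repressor within the clock, measured 16.7, 13.7, 12.4, 12.6 and 13.8 FPKM at estrus and 4.0, 6.52, 5.98, 6.26 and 7.32 FPKM at metestrus, with no overlap and an adjusted p of 0.109. Dbp, a clock output factor, moved from 33.6 ± 6.09 to 18.7 ± 4.55 FPKM (adjusted p = 0.692) and Nfil3, which opposes it at shared sites, from 2.84 ± 0.812 to 5.42 ± 0.866 FPKM (adjusted p = 0.171), both without overlap. These adjusted p-values rest on the spread within all 4 stages, whereas the SDs are of estrus or metestrus alone. The part of time of day in the called genes was not tested.

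Heat shock genes had 6 of 14 members at an unadjusted p under 0.05, all higher at metestrus, against 2.9% of all genes. None was called by limma, and the median was 0.36. Hspa8, the constitutive Hsp70 chaperone, measured 164, 150, 170, 121 and 142 FPKM at estrus and 206, 271, 243, 252 and 287 FPKM at metestrus, without overlap (adjusted p = 0.0558). Of 14 interferon-stimulated genes 13 were below 0, with a median of -0.31, where 8419 of all 13987 genes were below 0. By limma 0 of the 14 were called. An unadjusted p under 0.05 was reached by 1, lower at metestrus, against 5.23% of all genes. Thermogenesis genes had a median of 0.54 and no call by limma. An unadjusted p under 0.05 was reached by 4 of 12, all higher, against 2.9% of all genes. Ucp1, the uncoupling protein of brown fat, ran from 0 to 6.69 FPKM at estrus and from 0.0264 to 38.6 FPKM at metestrus. Leptin, encoded by Lep, ran from 71.5 to 608 FPKM at estrus and from 38 to 112 FPKM at metestrus, with the next estrus pad after estrus-1 at 140 FPKM. Of 16 cell cycle genes none was called and none had an unadjusted p under 0.05.

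Upstream sequences of the called genes were searched because glucocorticoid and progesterone receptors share the element ACANNNTGT. RefSeq windows of 250 bases before a transcript start (GRCm38.p6) were at hand for 20 of the 24 risers, 28 windows in all. The element occurred on either strand in 3 of these windows (10.7%), 1 of Slc10a6 and 2 overlapping ones of Fam107a, against 3.65% of 12395 windows of tested genes. The hexamer AGAACA, which can overlap it, occurred in 5 of the 28 (17.9%) against 11%, and 2 of these were the overlapping Fam107a windows. Several genes had more than 1 window, so the 28 are not independent. The E-box CACGTG was in 3 (10.7%) against 8.17%. The cyclic AMP motif TGACG was in 9 (32.1%) against 25.8%, the FoxO site GTAAACA in none against 2.17%, and the C/EBP site TTGCGCAA in none against 0.266%. Of the 7 fallers 2 had a window, and that of B3galt2 held AGAACA and CACGTG. A match is only a run of letters and says nothing of binding, and elements farther away were not searched. The window of each gene with a match to ACANNNTGT is shown with that of Fkbp5, which had none, read 5′ to 3′ on the strand of the gene, with capitals for ACANNNTGT, AGAACA and CACGTG on either strand. They lie at chr5:103629404-103629653 for Slc10a6, chr14:8309780-8310029 for Fam107a, and chr17:28486150-28486399 for Fkbp5, all on the minus strand, and the last 2 precede a start inside the longer GENCODE gene model.
Slc10a6: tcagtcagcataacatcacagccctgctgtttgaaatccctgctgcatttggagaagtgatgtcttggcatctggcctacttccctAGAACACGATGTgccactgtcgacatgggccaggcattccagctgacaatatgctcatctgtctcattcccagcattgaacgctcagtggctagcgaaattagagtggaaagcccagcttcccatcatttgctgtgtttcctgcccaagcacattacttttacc
Fam107a: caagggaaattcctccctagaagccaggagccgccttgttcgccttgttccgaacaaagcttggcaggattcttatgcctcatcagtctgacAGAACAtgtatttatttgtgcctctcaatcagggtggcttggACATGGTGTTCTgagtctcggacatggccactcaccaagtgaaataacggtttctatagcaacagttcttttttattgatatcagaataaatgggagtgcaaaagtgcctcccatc
Fkbp5: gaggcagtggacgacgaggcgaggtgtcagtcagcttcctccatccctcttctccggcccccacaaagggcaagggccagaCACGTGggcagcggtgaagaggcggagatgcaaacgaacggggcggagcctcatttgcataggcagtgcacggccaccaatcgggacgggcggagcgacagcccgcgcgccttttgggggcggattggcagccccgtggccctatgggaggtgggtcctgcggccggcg
In Slc10a6 the hexamer and the element share 3 letters, 161 bases before the start, and in Fam107a a hexamer on its own stands 158 bases before the start and another overlaps the element.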

How the data were processed

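Poly(A) RNA of 20 inguinal fat pads was sequenced in paired ends on an Illumina platform by the authors. The deposited table holds FPKM values of 35841 genes that the authors made from reads aligned to the mouse genome. The submitters' processing notes list FastQC 0.11.5, STAR 2.5.3a and StringTie 1.3.1c. They name both GRCm38 and hg38, and the annotation release is not given in the sources used here. Of the identifiers, 35766 are in GENCODE M21, which gave the positions. The table holds no read counts, and the read totals that the authors list for each library were not used here. The most frequent ratio of values under 0.3 FPKM put depth, relative to estrus-2, at 1.00 to 1.22 at estrus and 0.979 to 1.05 at metestrus. The part of depth in the changes of low genes was not tested. In these 10 libraries between 23272 and 27323 genes were above 0.

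Changes were fitted with limma 3.58.1 (R 4.3.3) on log2(FPKM + 1), with a variance trend, 1 mean per stage over all 20 libraries and Benjamini-Hochberg adjustment over all genes tested. The fit was also run on simulated data with independent noise, a single SD per gene over all stages and no differences in other tissue. That run cannot check unequal spread or shared tissue differences, and its outcome is not reported here. Intervals, errors and p-values rest on the spread between mice within all 4 stages, whereas a printed SD is of estrus or metestrus alone. The paper's supplement states that the first RNA of proestrus-2 was of insufficient quality. A second stored piece of fat from that mouse was used. Leaving that library out gave 33 calls, 27 of them among the 31. No pair of libraries shared over 0.0302% of values above 0. Replicate numbers were not taken to pair mice. Named genes are those past the threshold, list members with the smallest p, set receptors and adipokines, and the 10 genes nearest the threshold. The comparison, the gene lists and this rule were chosen with earlier results of these data known. The alternatives varied pseudocount, filter, scaling, weights, trend, block, covariates and libraries. Serum hormone values were not used. Results for some genes are not reported here.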

Additional observations from a re-analysis of the deposited data

How the results depend on the processing

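The 31 called genes kept their direction under all 33 alternatives in which they were tested, and 5 of them, Fkbp5, Pdk4, Arrdc3, Slc35e4 and Rasd1, were called under every one. The count was 18 (15 higher, 3 lower) both without a filter on low values and after rescaling to equal totals, 17 (12 higher) without mitochondrial genes, and 8 (6 higher, 2 lower) on the 10 libraries alone, where fewer samples estimate the spread and 6 of the 31 were called. It was 165 (95 higher, 70 lower) with array weights and 95 (63 higher, 32 lower) with a lymphocyte score as covariate, both of which held all 31. Genes lower at metestrus numbered 3 with median-ratio size factors and 4 with a luminal or a muscle score as covariate, and the causes were not tested. Leaving out 1 library gave 9 to 56 calls, 7 to 42 higher and 1 to 14 lower. Without estrus-1 the medians of T and NK cell markers and of collagen genes changed sign (0.30 to -0.13 and -0.17 to 0.07), and without metestrus-3 that of skeletal muscle markers did (0.82 to -0.71).

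The replicate block gave 21 calls (17 higher, 4 lower), 18 of them shared with the fit without it. Same-numbered pads had correlations of their deviations from -0.45 to 0.56, not every pad was closest to its own number, and the numbers were not taken as pairs. The table holds no counts, so that low genes carry an unknown counting error.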

Other observations

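The 10 genes nearest to the threshold on its far side were Hsp25-ps1, Ppara, Hspa8, Idh1, Dmrt2, Acer2, Adra1a, Cebpb, Ccn2 and Dclre1b. Idh1, the cytosolic isocitrate dehydrogenase that yields NADPH, measured 133, 151, 107, 133 and 126 FPKM at estrus and 96.0, 91.5, 91.0, 89.1 and 70.9 FPKM at metestrus, without overlap and with an adjusted p of 0.0558. Dmrt2, a DM-domain transcription factor, measured 31.1, 17.3, 7.91, 20.1 and 10.1 FPKM at estrus and 3.71, 3.91, 6.00, 5.19 and 4.29 FPKM at metestrus, also without overlap (adjusted p = 0.0558). Cebpb, a partner of Cebpd in adipogenesis, moved from 21.7 ± 4.43 to 38.2 ± 2.94 FPKM, and the ceramidase gene Acer2 from 6.69 ± 0.847 to 12.9 ± 3.18 FPKM. Hsp25-ps1 is a pseudogene copy of Hspb1, so its reads may come from that gene.

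With a lymphocyte score as covariate 64 further genes passed, of which a few were picked after their values were seen. Cd274, which encodes the checkpoint ligand PD-L1, moved from 7.64 ± 1.88 to 4.25 ± 1.29 FPKM without overlap, with an adjusted p of 0.0996 before and 0.0122 with the covariate. Rbp7, a retinol-binding protein of endothelium and adipocytes, moved from 23.2 ± 8.71 to 65.1 ± 26.8 FPKM without overlap, with an adjusted p of 0.124 before and 0.0276 with it. Ccn2, a matrix-associated growth factor, moved from 10.1 ± 3.86 to 23.7 ± 7.12 FPKM, and its adjusted p went from 0.0653 to 0.0122.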
